A study of Homo sapiens with 9 samples.

Results

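The UGT1A cluster was followed as 9 rows of the deposited gene table, UGT1A1, UGT1A3, UGT1A4, UGT1A5, UGT1A6, UGT1A7, UGT1A8, UGT1A9 and UGT1A10, of 59452 rows in all, and as the 20 transcripts assigned to them, of 236920. The genes were taken singly and as their sum. The family was chosen by the gene counts of UGT1A1, which were higher with AT-0174 in these same libraries, so the values for AT-0174 against vehicle are given as a description and were not tested for the members. The comparison of suspended with attached cells was tested. It uses the same suspended vehicle libraries that entered the choice of the family, so its results for the members are not independent of that choice.

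The libraries are bulk RNA-seq of MDA-MB-453, an established breast cancer line labelled as triple-negative and wild type, grown in DMEM with serum. One group was attached and received the vehicle DMSO, a second was kept in suspension on poly-HEMA, a coating that prevents adhesion, and received DMSO, and the third was kept in suspension with 10 μM AT-0174, an inhibitor of both tryptophan dioxygenases TDO2 and IDO1. Each group had 3 libraries, described as biological triplicates, and all cells were collected after 48 h. Attached cells with AT-0174 were not analysed here, and every comparison was made in 1 cell line.

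UDP-glucuronosyltransferases are membrane enzymes of the endoplasmic reticulum that attach glucuronic acid, taken from UDP-glucuronate, to bilirubin, steroids, phenols and drugs, which makes them soluble and ready for export. The UGT1A genes are unusual because each has its own promoter and first exon, which encodes the substrate-binding part of the enzyme, while all of them splice to one common set of exons that encodes the part binding UDP-glucuronate. An alternative last exon, 5b, gives shortened proteins known to lack enzyme activity. UGT1A1 is the bilirubin-conjugating enzyme, UGT1A6 acts on small planar phenols, UGT1A3 and UGT1A4 act on bile acids, steroids and amines, and UGT1A7, UGT1A8 and UGT1A10 are known as enzymes of the digestive tract outside the liver.

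The gene order on the plus strand of chromosome 2 (GRCh38, GENCODE 44 annotation) was UGT1A8, UGT1A10, UGT1A9, UGT1A7, UGT1A6, UGT1A5, UGT1A4, UGT1A3 and UGT1A1. UGT1A8 started farthest upstream, at 233617633, and UGT1A1 started at 233760270, closest to the common part, and the annotated genes all ended at 233773300. Exon 2 (chr2:233767034-233767165), exon 3 (chr2:233767849-233767936) and exon 4 (chr2:233768220-233768439) were held in common by 15 of the 20 transcripts. After exon 4 the transcripts went on to exon 5a, which starts at 233772262, or to exon 5b, which starts at 233769531, or carried parts of both. UGT1A6 had 8 of the 20 transcripts, 4 of which began in an exon upstream of the main UGT1A6 first exon. The transcripts UGT1A7-202, UGT1A6-204, UGT1A6-206 and UGT1A6-207 held none of the common exons.

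**Figure D1:**
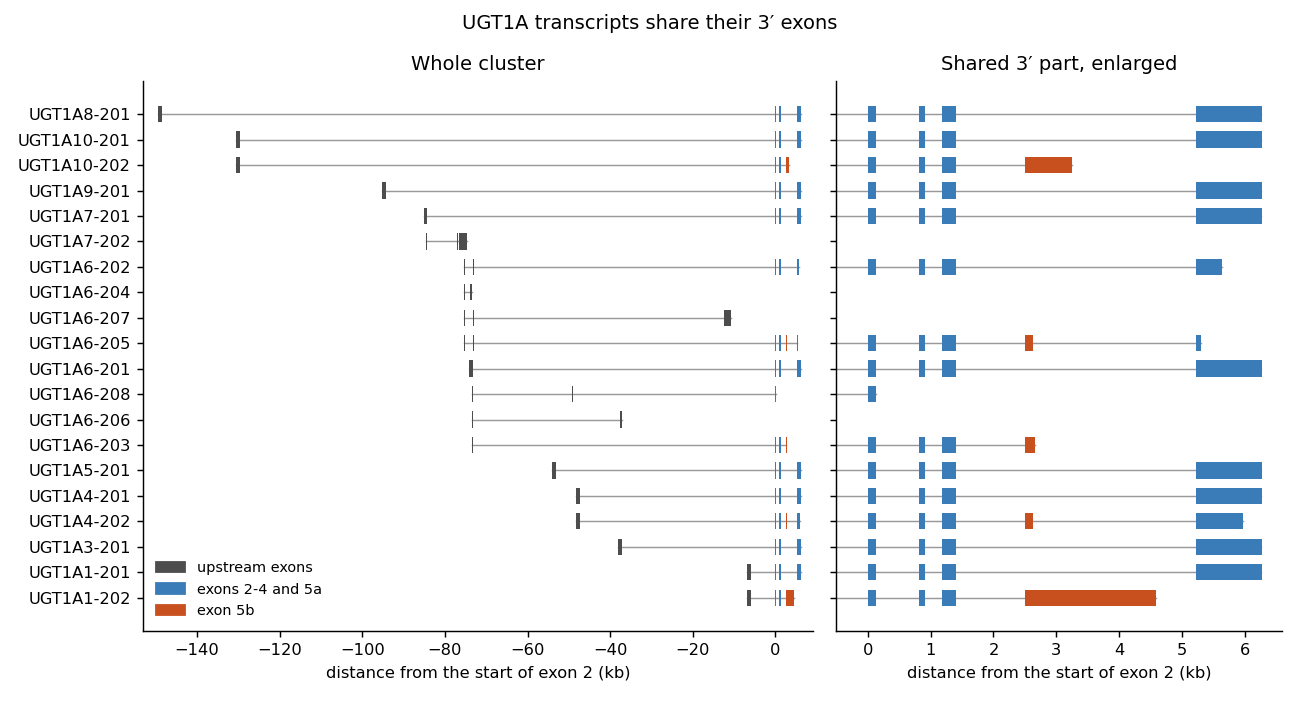
The 20 UGT1A transcripts, one per line, with exons as boxes against the distance from the start of exon 2 in kb, over the whole cluster on the left (exons narrower than 0.25 kb are drawn 0.25 kb wide) and over the common 3′ part on the right (to scale). Exons 2 to 4 line up in 15 transcripts, and 5 transcripts hold exon 5b.

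The junctions between each first exon and exon 2 are shown because they are where a single read ties the common part to 1 gene. They were read from the hg38 genome at the annotated exon ends, 30 bases on either side, 5′ to 3′, with exon 2 in capitals.
UGT1A8 (chr2:233618533-233618562 joined to chr2:233767034-233767063): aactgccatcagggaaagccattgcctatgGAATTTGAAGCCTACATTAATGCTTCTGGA
UGT1A10 (chr2:233637348-233637377 joined to chr2:233767034-233767063): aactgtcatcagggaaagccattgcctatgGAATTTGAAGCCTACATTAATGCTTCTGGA
UGT1A9 (chr2:233672760-233672789 joined to chr2:233767034-233767063): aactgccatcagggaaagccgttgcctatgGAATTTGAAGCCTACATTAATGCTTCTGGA
UGT1A7 (chr2:233682763-233682792 joined to chr2:233767034-233767063): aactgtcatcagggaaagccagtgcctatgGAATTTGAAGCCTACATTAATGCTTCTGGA
UGT1A6 (chr2:233693836-233693865 joined to chr2:233767034-233767063): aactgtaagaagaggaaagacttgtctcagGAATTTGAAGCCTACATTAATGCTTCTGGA
UGT1A5 (chr2:233713829-233713858 joined to chr2:233767034-233767063): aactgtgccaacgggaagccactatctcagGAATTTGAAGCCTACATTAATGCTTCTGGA
UGT1A4 (chr2:233719658-233719687 joined to chr2:233767034-233767063): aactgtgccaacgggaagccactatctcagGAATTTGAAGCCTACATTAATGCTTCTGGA
UGT1A3 (chr2:233729964-233729993 joined to chr2:233767034-233767063): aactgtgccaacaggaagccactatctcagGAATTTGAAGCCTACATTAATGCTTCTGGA
UGT1A1 (chr2:233761122-233761151 joined to chr2:233767034-233767063): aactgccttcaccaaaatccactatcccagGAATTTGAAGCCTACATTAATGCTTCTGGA
The capitals were the same in all 9. The lower-case part of UGT1A4 was identical to that of UGT1A5, so a read of this length across their junctions could belong to either gene, and the lower-case parts of UGT1A7, UGT1A8, UGT1A9 and UGT1A10 differed from each other at few bases. The last 400 bases of the first exons, counted back from the junction with exon 2, were compared without gaps. Identity was 93.5% to 96.8% within UGT1A7, UGT1A8, UGT1A9 and UGT1A10 and within UGT1A3, UGT1A4 and UGT1A5. UGT1A6 was 54.2% to 59.2% identical to every other member and UGT1A1 was 67.5% to 69% identical to UGT1A3, UGT1A4 and UGT1A5. In this stretch the first exons of UGT1A6 and UGT1A1 thus had no close copy among the 9 genes, and the rest of the first exons was not compared. The split of reads among UGT1A7 to UGT1A10 and among UGT1A3 to UGT1A5 is uncertain wherever reads fall in their similar parts.

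The junction to exon 5b and the upstream UGT1A6 start are shown because the transcript values below turn on them. In each line the capitals mark the downstream exon.
Exon 4 to 5b (chr2:233768410-233768439 joined to chr2:233769531-233769560): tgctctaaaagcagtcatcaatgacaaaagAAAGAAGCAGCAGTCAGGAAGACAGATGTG
UGT1A6 upstream exon to second exon (chr2:233691791-233691820 joined to chr2:233693799-233693828): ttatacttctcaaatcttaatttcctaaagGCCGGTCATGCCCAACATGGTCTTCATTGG

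UGT1A6 carried the cluster in these cells. Its level was 245, 239 and 228 CPM (counts scaled to 1000000 per library, with a correction for library composition) in the attached libraries, 240, 227 and 244 CPM in the suspended vehicle libraries and 345, 342 and 357 CPM with AT-0174. The attached and suspended vehicle libraries overlapped, and the 3 libraries with AT-0174 lay above all 6 others. UGT1A6 took 90.8% ± 0.568 of the summed UGT1A counts in attached cells, 92.0% ± 0.0874 in suspended cells and 92.1% ± 0.616 with AT-0174 (SD, n = 3 each). Long transcripts give more reads, and on the TPM scale, which divides by transcript length and sums to 1000000 per library, its share was 94.7%, 95.4% and 95.4% in the same order. The UGT1A6 level covers all 8 of its transcripts. UGT1A6-201, the only one with the whole main first exon, took an estimated 37.3%, 36.4% and 37.9% of the UGT1A6 TPM in that order. Of the UGT1A6 reads it took 63.6%, 61.9% and 63.6%. UGT1A6-202, from the upstream exon, holds 67 of the 976 bases of the main first exon.

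The summed UGT1A level was 269, 261 and 252 CPM when attached, 261, 247 and 266 CPM when suspended with vehicle, and 378, 371 and 386 CPM with AT-0174. In means these were 261 ± 8.54, 258 ± 9.72 and 378 ± 7.40 CPM (SD, n = 3). The first and second groups overlapped and the third stood apart above them. In bulk RNA such a level is a mean over the culture, and a change in the share of cells that express a gene cannot be told apart from a change in RNA per cell.

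Behind UGT1A6 came UGT1A10, UGT1A1 and UGT1A3 at similar levels per length. In attached cells the gene TPM was 242 ± 11.8 for UGT1A6, 4.23 ± 0.409 for UGT1A1, 3.97 ± 0.0994 for UGT1A3 and 4.37 ± 0.857 for UGT1A10 (SD, n = 3). UGT1A10, UGT1A1 and UGT1A3 did not differ beyond their spread. UGT1A7 followed at 0.430 ± 0.0984 TPM and UGT1A4 at 0.388 ± 0.0863 TPM, again within each other's spread. UGT1A5 was at 0 in 6 of the 9 libraries and between 8.11 and 13.6 estimated reads in suspended vehicle replicates 2 and 3 and AT-0174 replicate 1. UGT1A8 and UGT1A9 were at 0 in all 9 libraries, which allows a level of up to 0.0625 to 0.0819 CPM (3 counts of each library's total, for counting error only).

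**Figure D2:**
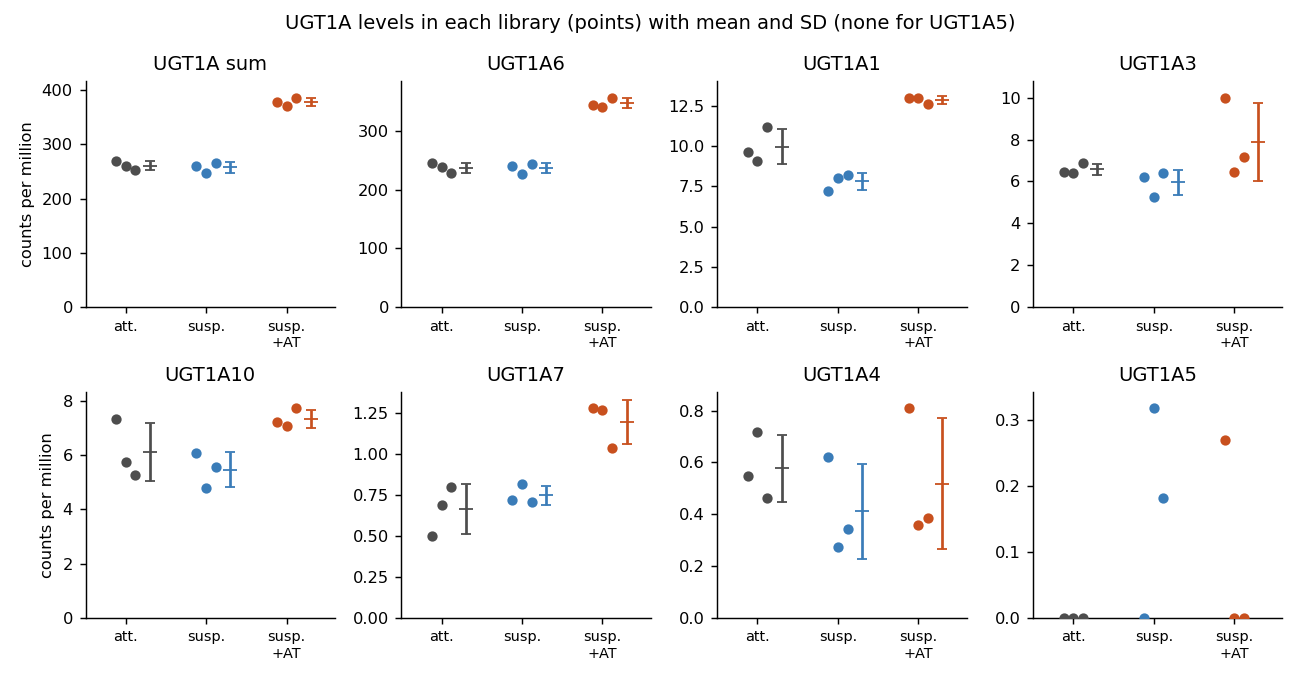
Level in CPM in each library (points) for the summed UGT1A counts and 7 member genes, in attached (att.), suspended vehicle (susp.) and suspended AT-0174 (susp. +AT) cells, with the mean and SD of each group beside the points (none for UGT1A5). The AT-0174 libraries lie above both other groups for the sum, UGT1A6, UGT1A1 and UGT1A7, and overlap them for UGT1A4 and UGT1A5.

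In suspension the counts assigned to UGT1A1 were called lower in the gene fit, and no change in the sum was called. These counts were all on the transcript UGT1A1-202. In the fit of transcripts it was not called (log2 fold change -0.32, adjusted p = 0.21 by edgeR). UGT1A1 stood at 9.62, 9.07 and 11.2 CPM when attached and at 7.21, 8 and 8.19 CPM when suspended with vehicle. The groups did not overlap, as for 18.7% of all tested genes in this direction, and the log2 fold change was -0.35 (SE 0.0852, adjusted p = 0.012, edgeR quasi-likelihood test with Benjamini-Hochberg adjustment over 15528 genes). It was the only call among the 6 members that could be tested, while 21.2% of all tested genes were called in this comparison and 10.8% were called lower. Without attached replicate 3, which had the highest UGT1A1 level of that group, the log2 fold change was -0.26 (adjusted p = 0.051 by edgeR), and with counts rebuilt from TPM it was -0.34 (adjusted p = 0.088 by edgeR). The call held in 12 of 14 alternative settings, with adjusted p from 0.0015 to 0.088. The suspended vehicle libraries tested here also entered the choice of the family, so the call is not independent of that choice.

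None of the other 5 tested members passed the test between suspended and attached cells. UGT1A6 had a log2 fold change of 0.0014 (SE 0.0371, adjusted p = 0.98 by edgeR). For UGT1A3 the value was -0.14 (SE 0.145), for UGT1A10 it was -0.17 (SE 0.127), for UGT1A7 it was 0.18 (SE 0.244) and for UGT1A4 it was -0.50 (SE 0.409), with adjusted p of 0.54, 0.39, 0.66 and 0.43 by edgeR. All 9 genes summed gave -0.017 (SE 0.0361, adjusted p = 0.78 by edgeR). Over the 6 tested members the median log2 fold change was -0.15, against -0.00025 over all tested genes. UGT1A5, UGT1A8 and UGT1A9 were too low to be tested.

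With AT-0174 each tested member had a positive log2 fold change over suspended vehicle cells, given here without a test. UGT1A1 stood at 13.0, 13.0 and 12.6 CPM, above the 7.21 to 8.19 CPM of suspended vehicle cells and above the 9.07 to 11.2 CPM of attached cells. Its log2 fold change was 0.72 (SE 0.0828), a ratio of 1.65. For UGT1A6 the log2 fold change was 0.55 (SE 0.0369), a ratio of 1.47, and for the sum it was 0.55 (SE 0.0359), also a ratio of 1.47.

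The low members gave less steady values with AT-0174. UGT1A7 stood at 1.28, 1.27 and 1.04 CPM against 0.723, 0.816 and 0.706 CPM with vehicle, a log2 fold change of 0.68 (SE 0.229). UGT1A10 stood at 7.23, 7.07 and 7.73 CPM against 6.07, 4.78 and 5.55 CPM, a log2 fold change of 0.43 (SE 0.124). UGT1A3 stood at 10.0, 6.47 and 7.19 CPM against 6.20, 5.28 and 6.42 CPM, and AT-0174 replicate 1 was well above the other two, so that the log2 fold change of 0.41 (SE 0.142) became 0.20 without it. UGT1A4 stood at 0.808, 0.358 and 0.385 CPM against 0.620, 0.272 and 0.341 CPM, with overlapping groups, and its log2 fold change of 0.36 (SE 0.405) turned to -0.13 without AT-0174 replicate 1. AT-0174 replicate 1 was also the only library of its group with UGT1A5 reads. The vehicle and AT-0174 groups did not overlap for 5 of the 6 tested members, all higher with AT-0174, where 7.75% of all tested genes were higher without overlap, and the choice of the family used this comparison. For UGT1A3 the groups were apart only by 6.47 against 6.42 CPM. The same counts, scaled with all transcripts, overlapped at 6.43 CPM with AT-0174 against 6.49 CPM with vehicle.

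The added reads were nearly all UGT1A6. Its mean was 111 CPM higher with AT-0174 than with vehicle, which was 92.2% of the difference in the sum, while UGT1A1 added 5.06 CPM, or 4.21%, UGT1A3 added 1.93 CPM and UGT1A10 added 1.87 CPM. UGT1A1 took 3.83% of the summed counts in attached cells, 3.03% in suspended cells and 3.41% with AT-0174.

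The transcripts show which ends and starts the reads were assigned to. These are Salmon estimates, which share out reads that several transcripts could have given. Of the 20 transcripts, 13 had a mean of at least 10 reads and the same number passed the filter for testing, while 4 were at 0 in every library. UGT1A6-201, with the main first exon and exon 5a, had the most reads, a mean of 7267 per library. UGT1A6-202, from the upstream exon and also ending in exon 5a, had 2517, UGT1A6-205 had 740, UGT1A6-203 had 650 and UGT1A6-204 had 287. Because UGT1A6-202 is short, it stood close to UGT1A6-201 per length, at 84.1, 83.9 and 88.5 TPM against 94.2, 92.9 and 98.0 TPM in suspended vehicle cells. Its exon 5a is annotated with 407 bases, against 1039 in UGT1A6-201, which lowers the length that TPM divides by. UGT1A6-202, UGT1A6-203, UGT1A6-205, UGT1A10-202 and UGT1A4-202 have 0 bases found in no other transcript. Their values thus rest on how Salmon shared out reads.

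**Figure D3:**
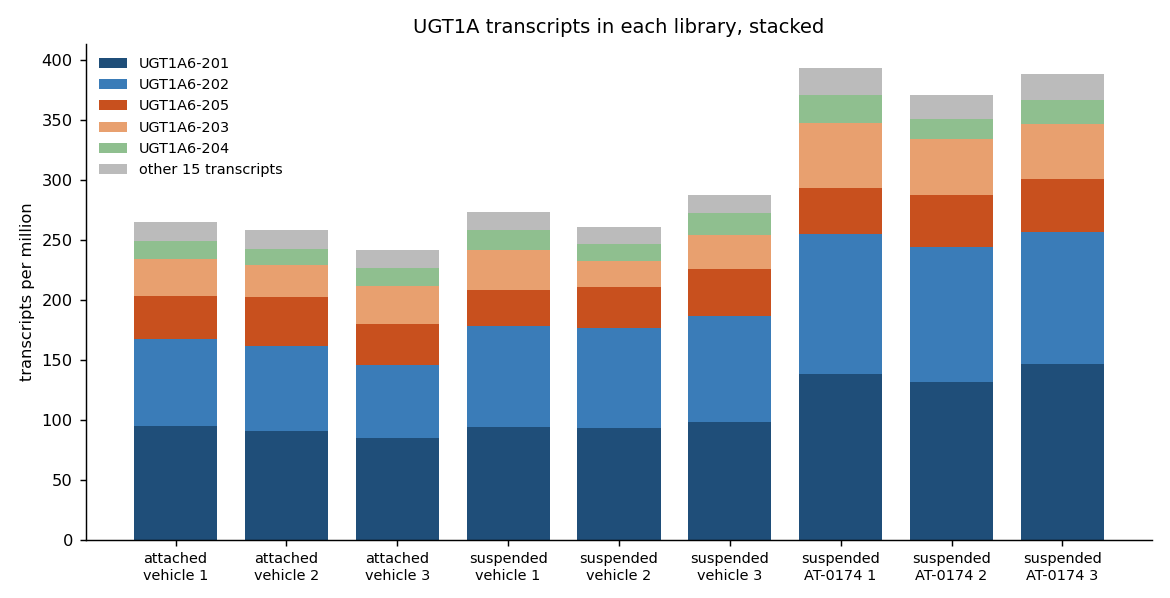
TPM of the 20 UGT1A transcripts stacked for each of the 9 libraries, with the 5 most abundant UGT1A6 transcripts in colours and the other 15 together in grey. UGT1A6-201 and UGT1A6-202 make up most of every bar, and the 3 bars with AT-0174 are the highest.

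The reads given to UGT1A1 were all on UGT1A1-202, the form that ends in exon 5b. It held 367.6, 327.9 and 436.3 estimated reads in attached cells, 279, 353.2 and 360 in suspended cells and 626.1, 546.4 and 555.3 with AT-0174, while UGT1A1-201, the form with exon 5a, was at 0 in all 9 libraries. UGT1A1-202 has 1336 bases found in no other UGT1A transcript, and all of them lie at the end of exon 5b, while its first exon is shared with UGT1A1-201. Among the annotated transcripts, a read from that stretch can be given to UGT1A1-202 alone, whichever first exon its RNA had. How many of its reads fell there and how many in the UGT1A1 first exon was not tested. In the same way the UGT1A4 reads were all on UGT1A4-202, which carries parts of exons 5b and 5a, and most UGT1A10 reads were on UGT1A10-202, which ends in exon 5b. The UGT1A3 reads were all on UGT1A3-201, with exon 5a and a mean of 286 reads. Of the mean of 36.8 UGT1A7 reads, 34.8 were on UGT1A7-202, which lacks the common exons and whose last exon (chr2:233690520-233692347) spans the upstream UGT1A6 exon (chr2:233691607-233691820). The UGT1A7 values are thus mostly estimates for a transcript without the common exons, and reads from the overlap could belong to either gene.

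Transcripts with exon 5b took 67.8% ± 2.49 of the reads of the 8 genes other than UGT1A6 in attached cells, 65.2% ± 1.44 in suspended cells and 68.8% ± 4.82 with AT-0174. With UGT1A6-203 and UGT1A6-205, which also hold exon 5b, all 5 such transcripts took 18.3%, 15.8% and 16.2% of the summed UGT1A reads in the same order of groups. Of the summed UGT1A TPM, a different measure, they took 28.8%, 29.6% and 30.6% in attached cells, 26.3%, 24.2% and 26.4% in suspended cells and 26.5%, 27.3% and 26.2% with AT-0174. Every attached library lay above the 6 suspended libraries in this share. Within UGT1A6, the 4 transcripts that start in the upstream exon took 49.3%, 51.0% and 48.3% of the UGT1A6 TPM in attached cells, 50.1%, 53.2% and 53.6% in suspended cells and 47.9%, 48.9% and 47.0% with AT-0174. Of the UGT1A6 reads they took 28.8% to 33.7% over all libraries. The AT-0174 libraries lay below the suspended vehicle libraries here and overlapped the attached ones. Of the 5 exon 5b transcripts only UGT1A1-202 has bases found in no other transcript. The split among these 5 thus rests largely on how Salmon shared out reads. Among UGT1A transcripts, reads in exon 5b or across its junction with exon 4 can be given only to these 5. Reads in their other exons could also be given to further transcripts. How much of the exon 5b shares such reads make up was not tested. These groupings of transcripts were made after their values were seen and were not tested.

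No UGT1A transcript passed the test between suspended and attached cells with edgeR, where 0.252% of 66693 tested transcripts did. Of the 13, 2 had an unadjusted p under 0.05, and DESeq2 called 2 and limma-voom 0. The 2 called by DESeq2 were UGT1A1-202, with a log2 fold change of -0.31 (adjusted p = 0.027 by DESeq2), and UGT1A6-202, with 0.26 (adjusted p = 0.0046 by DESeq2). By edgeR these were -0.32 (SE 0.0974, adjusted p = 0.21) and 0.26 (SE 0.0665, adjusted p = 0.15). UGT1A1-202 holds the same counts as the gene UGT1A1, which was called in the gene fit. UGT1A6-202 stood at 72.4, 71.1 and 60.7 TPM in attached cells and 83.9 to 88.5 TPM in suspended cells. Its groups did not overlap, nor did those of UGT1A1-202, where 10.7% of all tested transcripts were higher and 11.0% lower without overlap, while UGT1A6-201 had a log2 fold change of 0.00063 (SE 0.0498).

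With AT-0174, 12 of the 13 transcripts had positive log2 fold changes over suspended vehicle cells, with a median of 0.45 over the 13 against 0.0012 over all tested transcripts, again without a test. UGT1A6-201 had 0.59 (SE 0.0499), UGT1A6-203 had 0.85 (SE 0.168), UGT1A6-202 had 0.44 (SE 0.0664), UGT1A6-204 had 0.35 (SE 0.153) and UGT1A6-205 had 0.32 (SE 0.112). The exception was UGT1A10-201, at -0.45 (SE 1.60), which ranged from 0 to 37.26 estimated reads and had a coefficient of variation within groups of 87.4%, more than counting alone gives (27.1%). The vehicle and AT-0174 libraries did not overlap for 9 of the 13, all higher, against 4.98% of all tested transcripts.

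**Figure D4:**
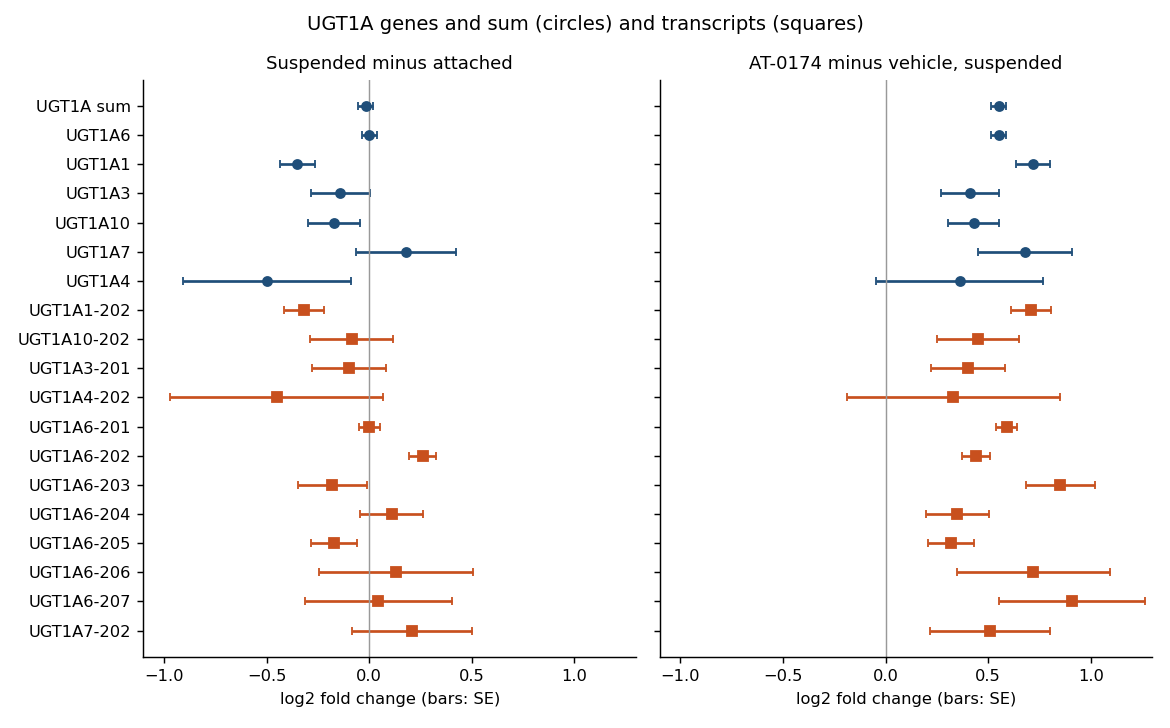
Log2 fold change with its SE for the summed counts and the 6 tested genes (circles) and for 12 of the 13 tested transcripts (squares; UGT1A10-201 is left out for its SE of 1.59 and 1.60), suspended minus attached on the left and AT-0174 minus vehicle in suspended cells on the right. Values spread around 0 on the left, with UGT1A1 at -0.35, and all lie above 0 on the right.

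The CPM of the sum had a pooled coefficient of variation of 3.10% within groups, where counting alone gives 0.893%, and that of UGT1A1 was 7.62% against 4.83%. UGT1A7, with a mean of 36.8 estimated counts, varied by 15.5% against 16.5% from counting, so its spread was about that of its depth.

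The promoter windows of UGT1A6 are shown because the gene has both an upstream and a main start and carried most of the difference with AT-0174. They are RefSeq windows of 250 bases before to 50 after each start (GRCh38.p14, plus strand). The capitals mark GCGTG, the core motif known for the aryl hydrocarbon receptor, in the upstream window, and TGACNNNGC, the antioxidant response motif known for NRF2, in the main window.
UGT1A6 upstream start (chr2:233691452-233691751): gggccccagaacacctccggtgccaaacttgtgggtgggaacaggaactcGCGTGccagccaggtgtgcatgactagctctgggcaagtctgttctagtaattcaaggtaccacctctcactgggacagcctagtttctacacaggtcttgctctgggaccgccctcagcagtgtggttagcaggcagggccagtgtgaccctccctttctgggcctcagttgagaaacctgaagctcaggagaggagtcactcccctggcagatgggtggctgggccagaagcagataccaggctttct
UGT1A6 main start (chr2:233692640-233692939): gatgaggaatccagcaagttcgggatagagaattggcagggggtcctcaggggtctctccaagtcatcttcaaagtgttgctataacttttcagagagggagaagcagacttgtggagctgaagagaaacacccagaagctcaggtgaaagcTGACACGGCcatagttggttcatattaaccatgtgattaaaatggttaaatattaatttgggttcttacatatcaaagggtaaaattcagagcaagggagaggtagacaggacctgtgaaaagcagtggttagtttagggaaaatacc
Both motifs were searched on both strands of 9 windows, 1 for each of 7 further members and 2 for UGT1A6, since the table held none for UGT1A10. GCGTG was found 200 bases before the upstream RefSeq start of UGT1A6, and also in the windows of UGT1A3, UGT1A4, UGT1A7, UGT1A8 and UGT1A9. That RefSeq start is where UGT1A6-207 begins (233691702). UGT1A6-202 begins farther upstream, at 233691607, inside the printed window. GCGTG is thus closer to the start of UGT1A6-202, and the end of the window lies in its first exon. TGACNNNGC was found 98 bases before the main UGT1A6 start and in the window of UGT1A5. The UGT1A1 window held neither. Of 35116 promoter windows of the same length, 36.5% held GCGTG and 13.3% held TGACNNNGC. A match describes letters in a window and no binding was measured.

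Transcription factors known to act on UGT1A genes, with their partners and inhibitors, were looked at next. Of the 12 regulators listed, 7 could be tested, and none was called between AT-0174 and vehicle by edgeR, with 0 at an unadjusted p under 0.05 and 0 by DESeq2, where 0.779% of all tested genes were called. AHR, the aryl hydrocarbon receptor, stood at 10.5, 10.9 and 11.5 CPM with vehicle and 10.1, 9.72 and 10.3 CPM with AT-0174 (log2 fold change -0.13, SE 0.0615, adjusted p = 0.59 by edgeR). NFE2L2, which encodes NRF2, stood at 110, 110 and 112 CPM and 111, 105 and 112 CPM (log2 fold change -0.014, SE 0.0377, adjusted p = 0.96 by edgeR). AHRR, the repressor of the receptor and itself one of its targets, varied from 0.181 to 2.03 CPM with vehicle and from 0.136 to 0.518 CPM with AT-0174, and the SE of its log2 fold change was 0.95. Protein amounts and activity were not measured.

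Between suspended and attached cells 3 of these 7 regulators were called, where 21.2% of all tested genes were. PPARA, a lipid-sensing nuclear receptor, fell by 0.51 on the log2 scale (SE 0.0779, adjusted p = 0.0011 by edgeR), from 11.8 to 12.3 CPM down to 8.18 to 8.67 CPM. KEAP1, the adaptor that marks NRF2 for degradation, rose by 0.18 (SE 0.0316, adjusted p = 0.0024 by edgeR) and RXRA, the partner of several nuclear receptors, by 0.10 (SE 0.0283, adjusted p = 0.027 by edgeR). The call for RXRA was lost when any of attached replicates 1 to 3 or suspended replicate 2 was left out, and also with no filter, in the 6 libraries alone and with counts rebuilt from TPM, with adjusted p up to 0.097 by edgeR. That for PPARA was lost only with counts rebuilt from TPM, at an adjusted p of 0.12.

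Of 8 genes for making UDP-glucuronate and carrying it to the endoplasmic reticulum, 7 were tested. UGDH, which oxidises UDP-glucose to UDP-glucuronate, stood at 46, 44 and 43.2 CPM with vehicle and rose to 52.1, 50.3 and 52.9 CPM with AT-0174 (log2 fold change 0.22, SE 0.0401, adjusted p = 0.022 by edgeR). It was the only call of the 7 with AT-0174, and was lost without suspended vehicle replicate 2 or 3 or AT-0174 replicate 1 or 3, with adjusted p up to 0.13 by edgeR, and with counts rebuilt from TPM, at 0.34. None of the 7 was called between suspended and attached cells by edgeR, with 1 at an unadjusted p under 0.05 and 0 by DESeq2 and limma-voom.

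Of the genes for glucuronide hydrolysis and export, 6 were tested and ABCC3 alone was called, in both comparisons. ABCC3 encodes MRP3, a pump that carries glucuronides out of cells. It stood at 93.9, 96.4 and 103 CPM when attached, at 53.0, 51.5 and 54.6 CPM when suspended with vehicle and at 82.0, 85.4 and 79.6 CPM with AT-0174. The 3 groups did not overlap. The log2 fold change was -0.88 (SE 0.0440, adjusted p = 1.4e-07 by edgeR) in suspension and 0.63 (SE 0.0439, adjusted p = 7.5e-06 by edgeR) with AT-0174. Both use the same suspended vehicle libraries, and both calls held in 14 of 14 alternative settings. GUSB, the lysosomal enzyme that removes glucuronic acid, had log2 fold changes of -0.064 and -0.046 and passed neither test.

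UGT1A1 takes its best-known substrate from heme breakdown, although the UGT1A1 reads here were all on UGT1A1-202, the exon 5b form. Of the 4 tested genes of that path, 2 were called in each comparison. Among all tested genes 21.2% were called in suspension and 0.779% with AT-0174. The list was chosen with earlier results of these data known, so the counts are a description. HMOX1, heme oxygenase, stood at 52.4, 45.6 and 46.4 CPM when attached, 35.9, 37.0 and 38.5 CPM when suspended and 76.2, 68.3 and 78.3 CPM with AT-0174. It fell by 0.37 on the log2 scale in suspension (SE 0.0631, adjusted p = 0.002 by edgeR) and rose by 1.00 with AT-0174 (SE 0.0616, adjusted p = 2.5e-06 by edgeR). BLVRB, a biliverdin reductase, rose by 0.25 in suspension (SE 0.0487, adjusted p = 0.0045 by edgeR) and by 0.25 with AT-0174 (SE 0.0481, adjusted p = 0.029 by edgeR). The latter call was lost without suspended vehicle replicate 1 or 3 or AT-0174 replicate 1 or 2, with adjusted p up to 0.14 by edgeR, and with counts rebuilt from TPM, at 0.22. BLVRA and HMOX2 passed neither test.

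None of the 13 glucuronosyltransferase and related genes of the UGT2, UGT3 and UGT8 families reached the level for testing, with at most 4 counts in any library. Of 25 other conjugating enzymes 16 were tested, and 7 were called in suspension, 5 higher and 2 lower, where 21.2% of all tested genes were called. GSTM4 fell by 0.27 on the log2 scale (SE 0.0432, adjusted p = 0.0015 by edgeR), a call kept in all 14 alternative settings. TPMT rose by 0.17 (adjusted p = 0.015 by edgeR), MGST2 by 0.22 (adjusted p = 0.028 by edgeR) and GSTO1 by 0.21 (adjusted p = 0.041 by edgeR), and GSTM2 fell by 1.07 (adjusted p = 0.036 by edgeR). With a library left out, the call for GSTM2 was lost in all 6 fits, that for MGST2 in all but 1, that for GSTO1 without attached replicate 1 or 2 or suspended replicate 2 or 3, and that for TPMT without attached replicate 3, with adjusted p up to 0.14 by edgeR. DESeq2 did not call MGST2. With AT-0174 only MGST1, a membrane glutathione transferase, was called. It stood at 121, 120 and 123 CPM with vehicle and 150, 152 and 143 CPM with AT-0174 (log2 fold change 0.29, SE 0.0362, adjusted p = 0.0017 by edgeR).

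Of 10 genes in and beside the cluster, 4 were tested. HJURP, a centromere protein gene downstream, fell by 0.17 on the log2 scale in suspension (SE 0.0429, adjusted p = 0.016 by edgeR) and had 0.14 with AT-0174 (adjusted p = 0.23 by edgeR). The first call was lost without attached replicate 3 or suspended replicate 2 or 3, with adjusted p up to 0.078 by edgeR. USP40, a deubiquitinase gene, had -0.10 and 0.14 (adjusted p = 0.13 and 0.26 by edgeR). The pseudogene UGT1A2P, which lies inside the cluster, stood at 0.129 to 0.410 CPM with vehicle and 0.549 to 0.663 CPM with AT-0174 (log2 fold change 1.09, SE 0.367, adjusted p = 0.32 by edgeR). Of the 4 tested neighbours none was called with AT-0174 by edgeR, with 3 at an unadjusted p under 0.05 and 0 by DESeq2 and limma-voom.

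The lists were chosen with earlier results of these data known, so their counts are a description. Over all lists, 44 of 79 genes could be tested. In suspension 14 were called, 8 higher and 6 lower, where 10.4% of all tested genes were called higher and 10.8% lower, and with AT-0174 5 were called, all higher, against 0.522% of all tested genes called higher. Leaving out attached replicate 1, 2 or 3 brought the first count to 9, 9 and 7, and leaving out suspended replicate 2 or 3 brought it to 7 and 8. Leaving out suspended vehicle replicate 3 or AT-0174 replicate 1 brought the count with AT-0174 to 3. ABCC3, HMOX1 and MGST1 held with AT-0174 whichever library was left out. The MGST1 call was lost with counts rebuilt from TPM, at an adjusted p of 0.14 by edgeR, while those for ABCC3 and HMOX1 were kept.

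The genes whose profile over the 9 libraries was most like that of the summed UGT1A level were TXNRD1, PIR, TRIM16L, TKT and FTH1. Likeness was measured as the root mean square difference of log2 CPM, each gene centred on its own mean, over 10524 genes outside the family with a mean of at least 5 CPM. It was 0.025 for TXNRD1, which encodes thioredoxin reductase, 0.0415 for PIR, which encodes pirin, 0.06 for TRIM16L, 0.0619 for TKT, which encodes transketolase of the pentose phosphate path, and 0.0698 for FTH1, the ferritin heavy chain. A gene with the same level in every library would have 0.259, and the median gene had 0.265. TXNRD1 stood at 209, 210 and 197 CPM when attached, 206, 196 and 201 CPM when suspended and 293, 294 and 305 CPM with AT-0174, a pattern that matched the sum in its order of groups. These genes were picked for that pattern, so it is a description.

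**Figure D5:**
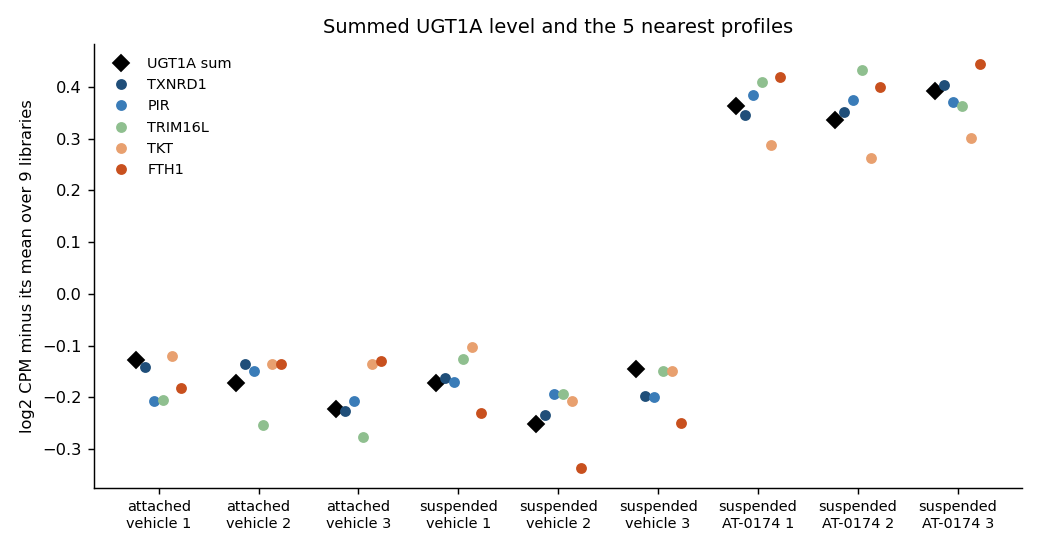
Log2 CPM of the summed UGT1A counts (black diamonds) and of its 5 nearest genes (coloured circles), each minus its own mean over the 9 libraries. All 6 lie below 0 in the attached and suspended vehicle libraries and above 0 in the 3 AT-0174 libraries.

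The libraries held 36649997 to 48019126 estimated counts and were all alike at the level of the whole table, with a correlation of log2 CPM of at least 0.9915 between any pair, a value over genes that share their lengths and annotation. In depth the suspended vehicle libraries overlapped both other groups, while every AT-0174 library was deeper than every attached one. The median was 44064734 estimated counts with AT-0174, 42970982 for suspended vehicle and 38658156 for attached cells. The epithelial genes KRT8 (875 to 955 CPM) and EPCAM (297 to 338 CPM) and the luminal gene FOXA1 (577 to 713 CPM) were present in every library. ERBB2, which encodes HER2, stood at 1029 to 1082 CPM throughout although the line is labelled triple-negative, and COL1A1, a collagen gene, at 107 to 149 CPM. PTPRC, PECAM1 and ALB, which mark blood, endothelial and liver cells, had at most 11 counts in any library.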

How the data were processed

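RNA-seq libraries of 3 groups of 3 were compared. Per the labels and methods, the authors trimmed reads with Cutadapt 3.4 in Trim Galore 0.6.7, aligned them to GRCh38 with STAR 2.7.9a and quantified transcripts with Salmon 1.10.1. The deposited gene values are estimated counts, which are not normalized, and the deposited transcript files hold estimated counts and TPM. The labels name a SMARTER kit and the methods name another, so strand was not relied on. Salmon shares out reads that fall in common exons, so each UGT1A gene or transcript is an estimate, whereas the sum over the 9 genes does not depend on the split within the family.

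Counts were rounded, filtered with filterByExpr, scaled by TMM and fitted with edgeR 4.0.16 (glmQLFit, R 4.3.3) over all 9 libraries. The sum was fitted in a table in which it replaced the 9 genes. P values were adjusted over all genes (15528) or transcripts (66693), with a threshold of 0.05. P values set each difference against the spread between these libraries. DESeq2 1.42.0, limma 3.58.1 and other settings were alternatives. The members and gene lists were chosen with earlier results of these data known. The text names all members, their transcripts with a mean of at least 10 reads, list genes that passed a test (at most 6 per list and comparison), the regulators that did not, and the 5 nearest profiles. GUSB, HMOX2, BLVRA, USP40 and UGT1A2P were named after their values were seen. RefSeq supplied the promoter windows. The depth was 36649997 to 48019126 estimated counts per library. A few list genes and a sequence are not reported here.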

Additional observations from a re-analysis of the deposited data

How the results depend on the processing

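The count of UGT1A genes called between suspended and attached cells, 1 by the reported test, was 2 of 7 tested with no filter on low counts, 0 with counts rebuilt from TPM and 0 to 1 when a library was left out. The second gene was UGT1A5, at 0 in the attached libraries. Of UGT1A transcripts, DESeq2 called 2 and edgeR 0, and 0 were called with any library left out. The difference in the sum between suspended and attached cells, -0.017 on the log2 scale, was 0.0051 with counts rebuilt from TPM and -0.041 to 0.016 with a library left out. With AT-0174 the sum stayed between 0.52 and 0.57 and 11 to 12 transcripts were positive when a library was left out. List genes called in suspension, 14 as reported, were 7 with counts rebuilt from TPM and 7 to 12 with a library left out, and those called with AT-0174, 5 as reported, were 2 and 3 to 4. The UGT1A6 share in suspended vehicle cells was 95.4% of TPM against 92.0% of counts. Rebuilding from TPM called 1401 genes in suspension and 31 with AT-0174, against 3297 and 121, and fitting without a filter called 3723 and 499. The cause of these changes was not tested.

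Signs were followed for the single UGT1A genes and transcripts and, in the comparison where they were called, the list genes. Among these the sign changed only in the following cases. Named genes that were not called, such as NFE2L2, are not covered here. Between suspended and attached cells UGT1A6, at 0.0014, was -0.00028 with DESeq2 size factors, -0.00029 with DESeq2, -0.006 in a fit of the 6 libraries and -0.027 to 0.034 with a library left out. UGT1A6-201 was -0.023 with at least 10 counts in every library, -0.0011 in the 6 libraries and -0.033 to 0.022 with a library left out. With a library left out UGT1A10-201 ranged from -1.26 to 0.31, UGT1A10-202 from -0.25 to 0.071, UGT1A6-206 from -0.049 to 0.36 and UGT1A6-207 from -0.042 to 0.21. With AT-0174, UGT1A4 ranged from -0.13 to 0.75 and UGT1A4-202 from -0.15 to 0.75 with a library left out, and UGT1A10-201 was 0.30 by limma-voom. The cause was not tested.

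The labels number the libraries of each group 1 to 3, but the deviations of same-numbered libraries correlated at -0.0999 to 0.0943, no more than differently numbered ones (-0.165 to 0.17), so the numbers were not treated as pairs. Not every library correlated best with its own number (4 of 12 times over both comparisons, which share the suspended vehicle libraries). With the replicate block UGT1A1 was -0.35 and the sum -0.018 between suspended and attached cells, 1 UGT1A gene was still called, list genes called were 11, and all genes called were 3250 in suspension and 146 with AT-0174. UGT1A10-201 was 0.0041 with the block.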
